A study of Mus musculus with 2 samples.

Results

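The 10 genes described here encode the peptides of KNDy neurons, some other opioid precursors and some receptors of these peptides. They were taken by symbol from the gene list of the expression matrix, where all 10 were found among 32285 genes. Kiss1, Tac2, Pdyn, Penk and Pnoc encode precursors, and Tacr3, Oprk1, Oprm1, Oprd1 and Oprl1 encode receptors. Their levels were compared between ARC-side and PVH-side nuclei and between neuron classes defined by other marker genes. None of the 10 genes was used to place a nucleus in a cluster or served as a marker to name a cluster. The thresholds for naming were set after the levels of these genes had been seen.

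KNDy neurons of the arcuate nucleus (ARC) are named for kisspeptin (from Kiss1), neurokinin B (from Tac2) and dynorphin (from Pdyn), and they are known for driving the pulses of gonadotropin-releasing hormone. Neurokinin B acts on its receptor NK3 (Tacr3) on the same neurons as a start signal, and dynorphin acts on the kappa opioid receptor (Oprk1) as a stop signal. Enkephalins (from Penk) act on the delta (Oprd1) and mu (Oprm1) opioid receptors, and nociceptin (from Pnoc) acts on its own receptor (Oprl1). All of these receptors couple to G proteins, the opioid receptors to inhibitory ones.

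The snRNA-seq data came from pooled hypothalamic tissue of several wild-type male C57BL/6J mice aged 10 to 12 weeks, with no treatment. The samples are titled ARC, and nuclei were sorted for the neuronal nuclear protein NeuN. The data consist of 1 pooled gene expression library and 1 library of hashtags, which are barcoded antibodies that mark the nuclei of a preparation before pooling. The files name 2 hashtags, ARC and PVH (paraventricular hypothalamus), although the study describes dissection of the ARC only. These hashtags do not tell mice apart. The nuclei were therefore treated as 1 sample, no test was made across nuclei, and all intervals below are 95% intervals that cover counting error only.

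After the filters and the hashtag calls, 3720 neurons carried the ARC hashtag and 3056 the PVH hashtag, with a median of 4833.5 and 5043 unique molecular identifiers (UMIs) per nucleus. These 6776 neurons fell into 19 clusters, numbered by size, and a further 65 nuclei were non-neuronal. Levels are CPM, a gene's UMIs scaled to 1000000 summed UMIs of the same nuclei. They were compared between groups for 1 gene at a time and not between genes, since capture differs between genes. UMIs of peptide genes were widespread outside the cells they mark. Agrp, which marks AGRP neurons, had a UMI in 49.1% of KNDy-like nuclei and 43.1% of non-neuronal nuclei, against 72.5% of AGRP-like nuclei. Oxt, the oxytocin gene, lay between 462 and 609 CPM in each neuron cluster except cluster 18, where it reached 2039. A low and even level of a peptide gene over the clusters is called background here and was not read as expression. Its source, such as free RNA from broken cells, was not tested.

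The stretches of coding sequence that carry the active cores of the 5 peptides are shown, because they are what the transcripts counted here share and what sets the families apart. They were cut from the mouse reference annotation GENCODE M21 on GRCm38, 5′ to 3′ in the sense of the gene, and capitals mark the codons of the 4 core residues by which each was found.
Kiss1, plus strand, chr1:133329583-133329612: aactggaacTCCTTCGGCCTGcgctacggc
Tac2, plus strand, chr10:127729119-127729148: atgcacgacTTCTTTGTGGGActtatgggc
Pdyn copy 1, minus strand, chr2:129688232-129688261: gccaaacgcTATGGCGGCTTTttgcgcaaa
Pdyn copy 3, minus strand, chr2:129688067-129688096: cagaagcgcTATGGTGGTTTCctgcggcgt
Penk copy 1, minus strand, chr4:4134328-4134357: gccaagaagTACGGAGGCTTCatgaaacgg
Penk copy 6, minus strand, chr4:4133935-4133964: cagaagaggTATGGGGGCTTCctgaagcgc
Pnoc, minus strand, chr14:65404872-65404901: cagaaaaggTTTGGGGGCTTCaccggggcc
Each stretch lies within 1 coding exon. The opioid core stands 3 times in the precursor of Pdyn (248 residues) and 7 times in that of Penk (268 residues). The related core of nociceptin, which opens with phenylalanine and not with the tyrosine of the classical opioids, stands 1 time in the precursor of Pnoc (212 residues). Kiss1 (126 residues) and Tac2 (116 residues) have 1 core each. The codons of the capitals differ between the printed copies of Pdyn although they encode the same residues.

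Tac2, Tacr3 and Pdyn were highest in cluster 13, a class of 222 nuclei of which 215 carried the ARC hashtag. This cluster was called KNDy-like because all 8 markers of its list passed. Among these markers were Nr5a2 at 160 CPM against 12.8 in the other neurons and Esr1, the estrogen receptor, at 487 against 71.0. The leading genes of the cluster by fold were Col24a1, Nxf3, Plekhg3, Inhbb and Aebp1. Slc17a6, the vesicular glutamate transporter, was at 223 CPM against 55.8, and Slc32a1, the vesicular GABA transporter, at 29.5 against 37.6. The median depth of the cluster was 4592 UMIs.

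Tac2 was at 143 CPM in the KNDy-like cluster (122 to 167, 160 UMIs). In the 18 other neuron clusters it lay between 7.32 and 16.7 CPM with a median of 10.9, and none of their intervals reached that of the KNDy-like cluster. Tac2 was thus 12.5-fold higher than in all other neurons, at 11.5 CPM (10.4 to 12.7), a log2 ratio of 3.64 (3.37 to 3.91). The gene, ENSMUSG00000025400 on the plus strand of chromosome 10 from 127724478 to 127731768, overlaps no other annotated gene. The level in the other clusters was even and low, and the non-neuronal nuclei had 1 UMI in 65 nuclei, at 3.86 CPM (0.0978 to 21.5).

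**Figure D1:**
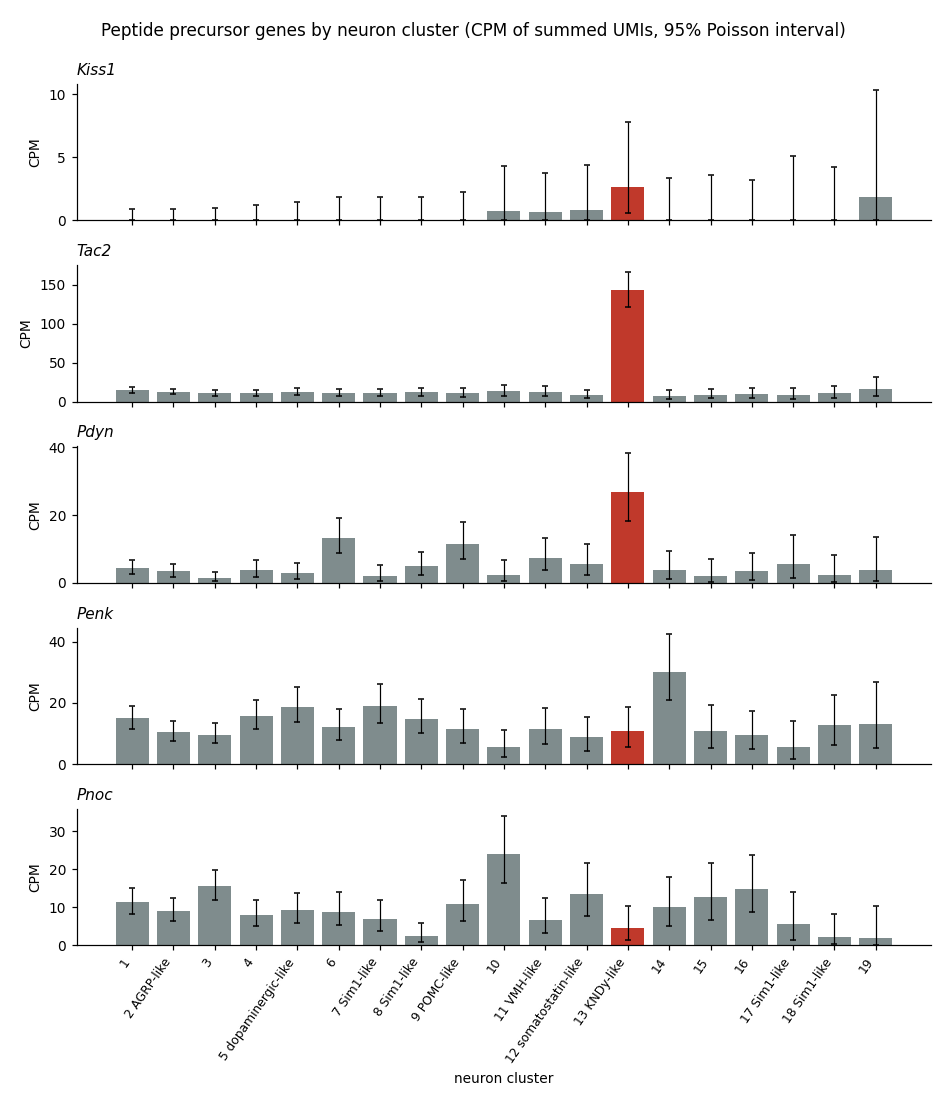
CPM of summed UMIs (y axis, with its own scale for each gene) of the 5 precursor genes in the 19 neuron clusters (x axis, numbered by size), with 95% Poisson intervals as error bars and the KNDy-like cluster in red. Tac2 stands at 143 CPM in the KNDy-like cluster and at 16.7 or less elsewhere, while the highest bars of Penk and Pnoc are in clusters 14 and 10.

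In single nuclei, 106 of 222 KNDy-like nuclei (47.7%) had a Tac2 UMI. The share was 5.94% in the other neurons, at a median depth of 4929 UMIs, and 1.54% in non-neuronal nuclei, whose median depth was 3026 UMIs. With each nucleus thinned to 1000 UMIs the shares were 11.3%, 1.21% and 0%, the last being 0 of 65 nuclei, which allows up to 4.62%. Here and below, the limit that a count of 0 allows is taken as 3 counts of the total. Nuclei with several Tac2 UMIs were the clearest case. Of the singlets with 3 or more Tac2 UMIs, all 14 lay in the KNDy-like cluster, and 13 of them carried the ARC hashtag. The most in a single nucleus was 6. Nuclei with 2 or more Tac2 UMIs held 54.4% of the Tac2 UMIs of the cluster and 5.50% of those of the other neurons.

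Pdyn, which encodes prodynorphin, was at 26.8 CPM in the KNDy-like cluster (18.1 to 38.3, 30 UMIs) and 4.45 in the other neurons (3.78 to 5.21). The log2 ratio was 2.59 (1.98 to 3.16). Next in order were cluster 6 at 13.2 CPM (8.71 to 19.2) and the POMC-like cluster at 11.5 (6.91 to 17.9), and the interval of cluster 6 overlapped that of the KNDy-like cluster. The other neuron clusters lay between 1.53 and 7.43 CPM. A Pdyn UMI was found in 9.91% of KNDy-like nuclei, 2.32% of the other neurons and 1.54% of non-neuronal nuclei. After thinning the share in the cluster was 1.35%, or 3 nuclei, so that little can be read from Pdyn at that depth. Pdyn (ENSMUSG00000027400) spans 129686565 to 129699844 of chromosome 2, minus strand.

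Kiss1, which encodes kisspeptin, was nearly undetected. It had 7 UMIs in all neurons, each in a different nucleus, and 3 of them were in the KNDy-like cluster, at 2.68 CPM (0.553 to 7.83) against 0.115 in the other neurons (0.0313 to 0.294). The log2 ratio was 4.55 with an interval from 1.77 to 7.11. The other 4 UMIs lay 1 each in clusters 10, 11, 12 and 19. The intervals of all 18 other clusters, those with 0 UMIs included, overlapped that of the KNDy-like cluster. For Kiss1 it was thus set apart from no single cluster, and its level equalled the limit of 3 counts, 2.68 CPM. Kiss1 shares its exons with other annotated genes. It (ENSMUSG00000116158, plus strand of chromosome 1, 133321875 to 133329901) lies within a region where Gm28040, a gene with readthrough transcripts, is annotated on the same strand. Of its 779 exonic bases, 63.9% are shared with the copy of Gm28040 that the matrix lists, and all are shared with some overlapping gene. Reads that fit 2 genes are commonly set aside in counting. Gm28040 itself had 14 UMIs in neurons, of which 7 were in the KNDy-like cluster, at 6.26 CPM (2.52 to 12.9) against 0.201 in the other neurons (0.0808 to 0.414). How many reads of Kiss1 were lost or counted under Gm28040 was not tested.

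Tacr3, the receptor of neurokinin B, was at 45.6 CPM in the KNDy-like cluster (33.9 to 59.9, 51 UMIs). The other neurons were at 7.49 (6.61 to 8.46), a log2 ratio of 2.61 (2.14 to 3.04). The next level was 26.1 CPM (15.7 to 40.8) in cluster 17, a Sim1-like cluster with the most Avp (vasopressin) at 1813 CPM, and this interval overlapped that of the KNDy-like cluster. The 17 remaining clusters lay wholly below the KNDy-like interval, from 0.977 CPM in cluster 15 to 16.7 in cluster 19. In cluster 17 Tacr3 was thus also above its level in all neurons, 8.67 CPM (7.74 to 9.69). Its interval there overlapped those of other clusters too, such as cluster 19 (7.64 to 31.7). In cluster 17, 86 of 120 nuclei carried the PVH hashtag and Tac2 was at 8.25 CPM. A Tacr3 UMI was present in 17.1% of KNDy-like nuclei, 14.2% of the nuclei of cluster 17 at a median of 5675 UMIs, 3.80% of the other neurons and 4.62% of non-neuronal nuclei. Thinned shares were 4.50%, 1.67%, 0.794% and 0%. Tacr3 (ENSMUSG00000028172) is on the plus strand of chromosome 3 from 134829007 to 134934579.

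Oprk1, which encodes the kappa receptor for dynorphin, had its highest levels in 3 clusters. It was at 59.8 CPM (44.7 to 78.5) in cluster 18, a Sim1-like cluster with the most Oxt, at 51.7 (43.2 to 61.4) in the dopaminergic-like cluster 5 and at 41.1 (30.1 to 54.8) in the KNDy-like cluster. Their intervals overlapped, so no order among these 3 is given. Clusters 18 and 5 lay above all clusters but the KNDy-like one. The interval of the KNDy-like cluster also overlapped those of cluster 15, at 24.4 CPM (15.8 to 36.1), and cluster 19, at 20.4 (10.2 to 36.5). Cluster 1 was at 24.4 CPM (19.9 to 29.7). The 2 Sim1-like clusters with a peptide of the posterior pituitary stood at opposite ends, since cluster 17 was the lowest for Oprk1 at 1.37 CPM from 1 UMI. Oprk1 was found in 32.5% of cluster 18 at a median of 7088 UMIs, 20.2% of those of cluster 5 and 18.9% of KNDy-like nuclei. The non-neuronal nuclei had 0 of 65, which allows up to 4.62% by the same limit of 3 counts. After thinning, the shares were 3.42%, 5.54% and 4.50%, and the excess of cluster 18 over cluster 5 in the unthinned share was no longer seen. Oprk1 (ENSMUSG00000025905) is on the plus strand of chromosome 1 from 5588466 to 5606131.

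**Figure D2:**
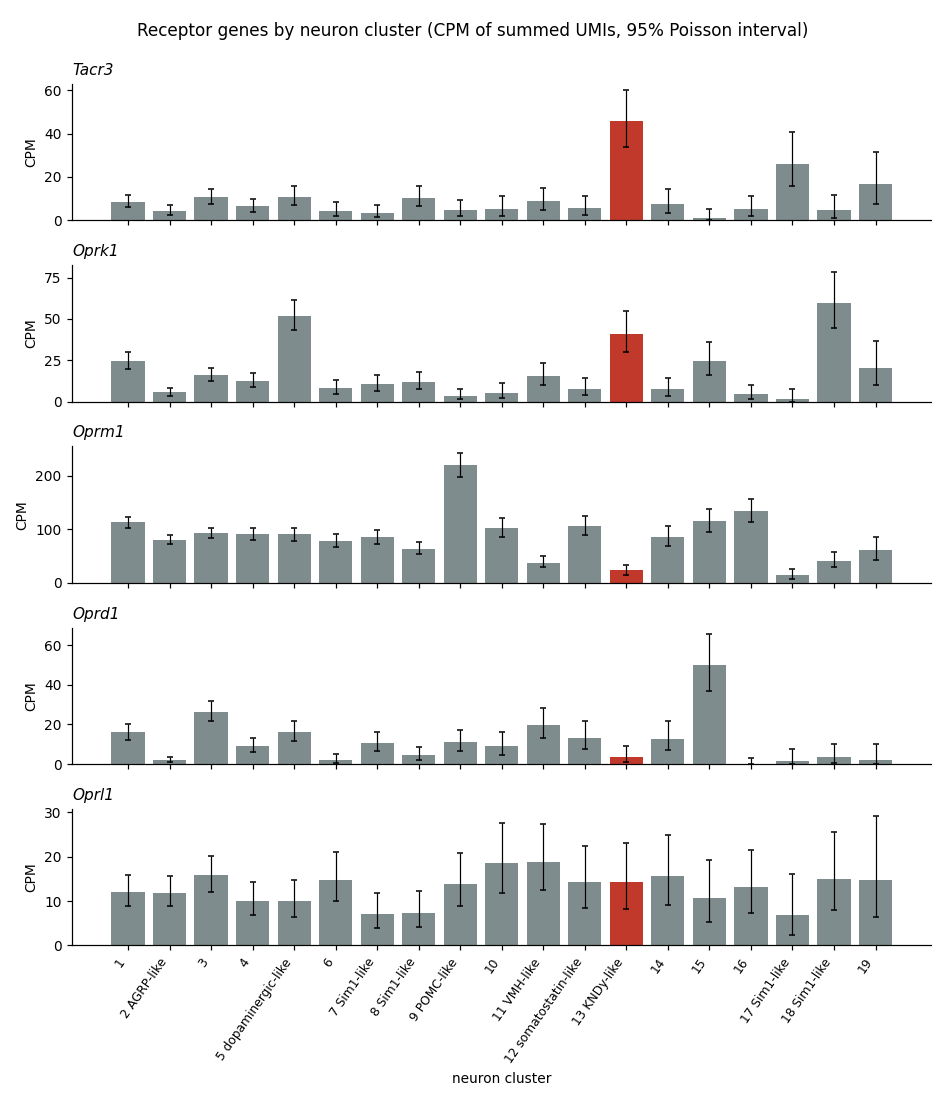
CPM of summed UMIs (y axis, with its own scale for each gene) of the 5 receptor genes in the 19 neuron clusters (x axis), with 95% Poisson intervals and the KNDy-like cluster in red. Tacr3 is highest in the KNDy-like cluster at 45.6 CPM, Oprk1 is high in clusters 5, 13 and 18, Oprm1 reaches 219 CPM in the POMC-like cluster, Oprd1 reaches 49.8 in cluster 15, and Oprl1 is nearly even.

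The other opioid genes did not lead in the KNDy-like cluster. Oprm1, the mu receptor gene, was at 23.2 CPM there (15.2 to 34.0) and at 93.1 in the other neurons (90.0 to 96.4), a log2 ratio of -2.0 (-2.62 to -1.45). With a stricter positive quantile of 0.99 for the hashtag calls it was -1.11 (-1.88 to -0.44). Only cluster 17 was lower, at 13.7 CPM (6.59 to 25.3), and these 2 intervals overlapped. Oprd1, the delta receptor gene, had 4 UMIs in the cluster, at 3.57 CPM (0.974 to 9.15) against 12.2 (11.1 to 13.4), a log2 ratio of -1.77 (-3.66 to -0.41) that became -2.76 without the 1 nucleus with 2 of these UMIs. Of the precursors, Pnoc was at 4.47 CPM against 10.1, with a log2 ratio of -1.18 whose interval reached zero (-2.81 to 0.06). The interval of Pnoc excluded zero in ARC nuclei alone, at -1.26 (-2.90 to -0.02), and without its richest nucleus, at -1.50 (-3.38 to -0.13). Penk was at 10.7 against 13.2 CPM, with a log2 ratio of -0.30 (-1.27 to 0.52). Oprl1 was at 14.3 against 12.5 CPM, a log2 ratio of 0.19 (-0.63 to 0.91). Against the other neurons together, the KNDy-like class thus had higher levels of Tac2, Pdyn, Tacr3 and Oprk1 and lower levels of Oprm1 and Oprd1. The levels of Oprk1 and Oprd1 were not particular to it. Oprk1 was at 59.8 CPM in cluster 18 and 51.7 in cluster 5. For Oprd1 the class ranked 13 of the 19, and cluster 6 was among those below it, at 1.96 CPM (0.534 to 5.01).

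Of the 9 member genes with at least 50 UMIs in neurons, 4 (Tac2, Tacr3, Pdyn and Oprk1) were at least 2-fold higher in the KNDy-like cluster, where 4.17% of the 15792 genes at this depth were. Another 3 (Pnoc, Oprm1 and Oprd1) were at least 2-fold lower, against 13.1% of all genes. The KNDy-like cluster was the highest of the 19 for 3 of the 9, against 8.97% of all genes. The median log2 ratio of the 9 was 0.19, and that of all genes -0.03. Kiss1 was too low to be counted here.

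The nearest class by markers was cluster 6, with 421 nuclei, which passed 6 of the 8 KNDy markers and had Esr1 at 288, Prlr at 238 and Pgr at 195 CPM. It showed no raised Tac2, at 10.8 CPM (6.75 to 16.3), and Tacr3 was at 4.41 (2.01 to 8.37). Oprk1 was at 8.32 (4.85 to 13.3) and Oprm1 at 78.3 (66.7 to 91.5). Of Tac2, Tacr3, Pdyn and Oprk1, which were raised in the KNDy-like cluster, only Pdyn was also above its level in most clusters here.

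**Figure D3:**
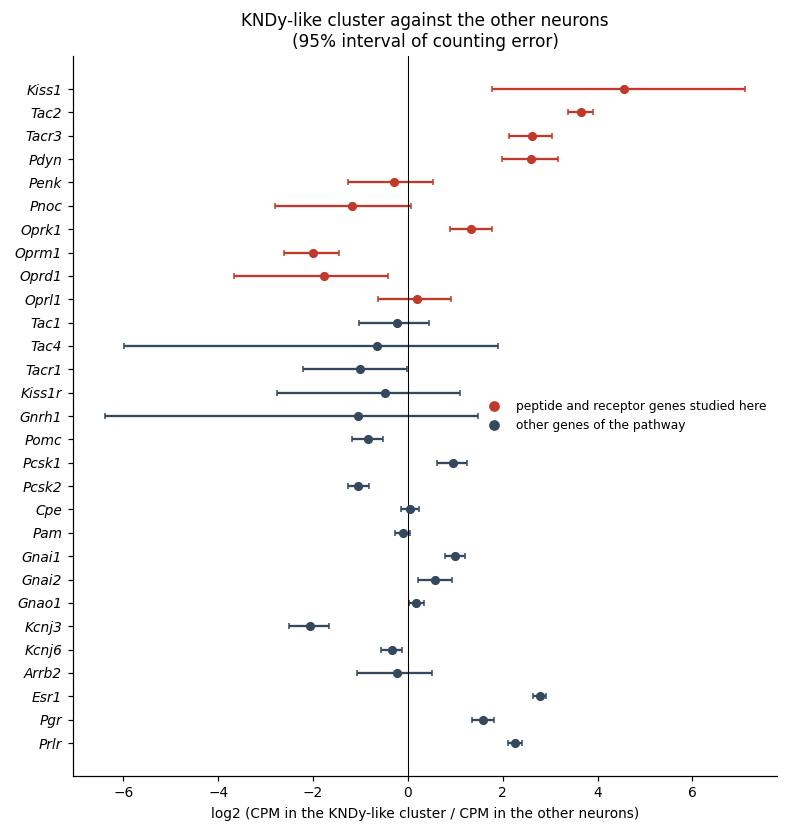
log2 ratio of CPM in the KNDy-like cluster (222 nuclei) to CPM in the other neurons (6554 nuclei) on the x axis, for the 10 peptide and receptor genes (red) and other pathway genes with at least 50 UMIs (dark blue), with 95% intervals of counting error. Tac2 (3.64), Tacr3 (2.61), Pdyn (2.59) and Oprk1 (1.34) lie right of the line at zero, and Oprm1 (-2.0) and Oprd1 (-1.77) left of it.

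Of the 22 other genes of the pathway, 20 had at least 50 UMIs, and 4 of these were at least 2-fold higher in the KNDy-like cluster. All 4 were markers that named the cluster, among them the receptors Esr1, Pgr and Prlr, and are no result. Among the genes that were not markers, Gnai1, which encodes an inhibitory G protein subunit, was at 182 against 91.5 CPM with a log2 ratio of 0.99 (0.78 to 1.2). Pcsk1, a convertase that cuts peptide precursors, had a log2 ratio of 0.94 (0.62 to 1.25). The 4 genes at least 2-fold lower were Tacr1, Gnrh1, Pcsk2 and Kcnj3, against 13.1% of all genes. Tacr1 had 8 UMIs in the cluster, and the interval of its log2 ratio ran from -2.22 to -0.01. Pcsk2, the second convertase, was at 154 against 318 CPM, a log2 ratio of -1.05 (-1.27 to -0.83). Kcnj3, a subunit of the potassium channel that opioid receptors open, was at 43.8 against 184 CPM, a log2 ratio of -2.07 (-2.51 to -1.67). Kiss1r, the kisspeptin receptor gene, was at 2.68 CPM from 3 UMIs against 3.73. Gnrh1 rested on 1 UMI in the cluster, and the interval of its log2 ratio (-6.39 to 1.47) included zero.

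Tac2, Tacr3 and Pdyn shared their leading cluster, so the sequence before their start sites is shown, from RefSeq promoters on GRCm38.p6. Each line gives the 250 bases before the first listed start site, 5′ to 3′ in the sense of the gene. Capitals mark the motifs found on either strand.
Tac2, plus strand, chr10:127724228-127724477: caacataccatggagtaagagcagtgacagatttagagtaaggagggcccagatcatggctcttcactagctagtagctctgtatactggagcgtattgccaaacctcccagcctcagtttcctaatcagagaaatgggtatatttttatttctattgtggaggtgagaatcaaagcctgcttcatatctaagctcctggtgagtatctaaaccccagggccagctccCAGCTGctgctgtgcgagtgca
Tacr3, plus strand, chr3:134828757-134829006: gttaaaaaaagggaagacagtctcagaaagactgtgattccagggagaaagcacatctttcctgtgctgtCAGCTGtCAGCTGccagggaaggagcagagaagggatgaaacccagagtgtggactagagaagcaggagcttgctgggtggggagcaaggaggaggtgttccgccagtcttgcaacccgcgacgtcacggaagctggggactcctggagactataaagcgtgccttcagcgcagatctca
Pdyn, minus strand, chr2:129699939-129700188: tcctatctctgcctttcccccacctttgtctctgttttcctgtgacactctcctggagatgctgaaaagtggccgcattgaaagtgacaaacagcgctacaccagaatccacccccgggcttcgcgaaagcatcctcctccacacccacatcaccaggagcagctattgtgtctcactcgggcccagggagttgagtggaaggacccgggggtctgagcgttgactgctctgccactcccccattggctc
The motifs searched, on both strands, were the estrogen response element GGTCANNNTGACC and GGTCA, its single arm, the NR5A site AAGGTCA, which contains that arm, and the E-box CAGCTG. The E-box stood 1 time before Tac2 and 2 times before Tacr3, and 13% of 32851 mouse promoters of this length hold it. The single arm, present in 35.2% of promoters, the NR5A site, in 4.08%, and the full element, in 0.0639%, were not among the letters of these 3 windows, and the window of Pdyn held none of the motifs. Kiss1, whose level in this cluster rests on 3 UMIs, is not printed, and its window held the single arm 2 times. A match is a description of letters and not a binding site.

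Detection of the peptides in the same nuclei was sparse. Of the 222 KNDy-like nuclei, 118 (53.2%, interval 46.4 to 59.9) had a UMI of Tac2, Pdyn or Kiss1, against 8.21% of the other neurons (7.56 to 8.90). Tac2 and Pdyn were found together in 11 nuclei of the cluster (4.95%) and in 7 of 6554 other neurons (0.107%). Within the cluster, Pdyn was found in 10.4% of nuclei with a Tac2 UMI (5.30 to 17.8) and 9.48% of those without one (4.83 to 16.3). Tacr3 was found in 17.9% (11.2 to 26.6) and 16.4% (10.2 to 24.4), and Oprk1 in 14.2% (8.14 to 22.3) and 23.3% (15.9 to 32.0). The intervals overlapped for each of the 3 genes, so that a link between Tac2 and these genes from nucleus to nucleus was not detectable at this depth.

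**Figure D4:**
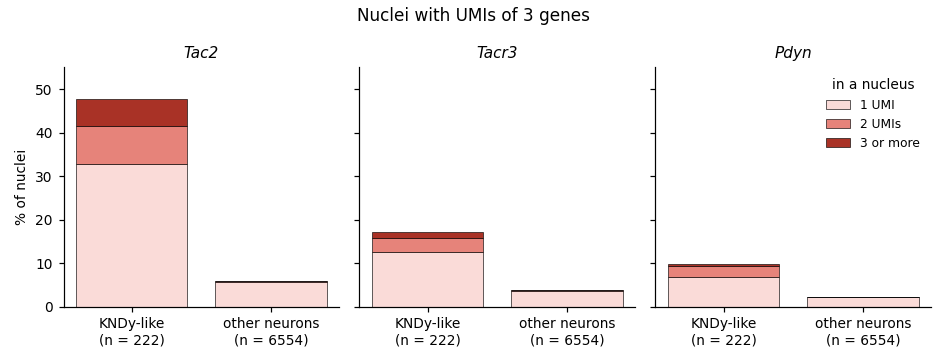
Percent of nuclei (y axis) with 1, 2 or 3 or more UMIs of Tac2, Tacr3 and Pdyn in the KNDy-like cluster (n = 222 nuclei) and the other neurons (n = 6554 nuclei), stacked. Nuclei with a UMI made up 47.7%, 17.1% and 9.91% of the KNDy-like cluster, and 3 or more UMIs of these genes were not found in any of the other neurons.

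Penk, the proenkephalin gene, was highest in cluster 14, an unnamed ARC cluster of 207 nuclei led by Chat, the acetylcholine synthesis gene, at 109.8 CPM, and with Ghrh at 78.7. Penk was at 30.2 CPM there (20.8 to 42.4, 33 UMIs) against 12.6 in the other neurons, a log2 ratio of 1.26 (0.70 to 1.77). In the other clusters it lay between 5.43 and 19.0 CPM, and 12 of the 18 lay wholly below cluster 14. Penk was found in 14.0% of cluster 14, 6.21% of all neurons and 4.62% of non-neuronal nuclei. The last share rests on 3 of 65 nuclei (0.962 to 12.9), with a median depth of 3026 UMIs against 4916 in neurons. Outside the KNDy-like cluster, nuclei with 2 or more Penk UMIs held 20.2% of the Penk UMIs of neurons. How much of the level in the other clusters was background was not tested. Of 10 nuclei with 3 or more Penk UMIs, 1 lay in cluster 14 and 3 in cluster 8, and 7 carried the PVH hashtag. Penk (ENSMUSG00000045573, minus strand of chromosome 4, 4133531 to 4138819) overlaps A830012C17Rik on the plus strand, which had 131 UMIs in neurons and was also highest in cluster 14, at 18.3 CPM (11.2 to 28.3). Which strand was counted is not stated in the sources used here, so reads of these 2 genes may not be fully told apart.

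Pnoc, the nociceptin precursor gene, was highest in cluster 10, an unnamed ARC cluster of 268 nuclei led by Htr3b, a serotonin receptor gene. It was at 24.0 CPM there (16.3 to 34.1, 31 UMIs), against 9.43 in the other neurons, a log2 ratio of 1.35 (0.77 to 1.88). Clusters 3 (15.5 CPM, 11.9 to 19.9) and 16 (14.8 CPM, 8.64 to 23.7) came next and overlapped it, and 12 of the 18 clusters lay wholly below. The lowest levels were in clusters 19, 18 and 8, at 1.86, 2.30 and 2.47 CPM. Pnoc was found in 10.4% of cluster 10 and 1.54% of non-neuronal nuclei. It spans 65400673 to 65425472 of chromosome 14, minus strand (ENSMUSG00000045731).

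Oprm1 was found in every neuron cluster and was highest in the POMC-like cluster, whose neurons make the opioid beta-endorphin. It was at 219 CPM there (197 to 242, 362 UMIs), set apart from all 18 other clusters, and 84.8 in the neurons outside it, a log2 ratio of 1.37 (1.2 to 1.52). Cluster 16, an unnamed PVH-side cluster with Sim2 and Sim1, was at 133 CPM (113 to 156), an interval that overlapped those of clusters 15 and 1. At the other end were cluster 17 at 13.7, the KNDy-like cluster at 23.2 and the VMH-like cluster at 37.8 CPM (28.6 to 49.1). The range over neuron clusters was thus wide for the same gene. Oprm1 was found in 60.8% of POMC-like nuclei, 30.6% of all neurons and 1.54% of non-neuronal nuclei, and in 19.9%, 8.34% and 0% after thinning. Oprm1 (ENSMUSG00000000766, plus strand of chromosome 10, 6758506 to 7038198) overlaps Ipcef1 on the minus strand. Ipcef1 had 790 UMIs in neurons, and its level was the one most like that of Oprm1 over the clusters (Pearson r 0.93 of log2(CPM + 1) over 19 clusters). Without the strand setting, reads of this pair cannot be told apart with certainty.

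Oprd1 was highest in cluster 15, an unnamed ARC cluster of 204 nuclei led by Pirt and Tbx19. It was at 49.8 CPM there (37.1 to 65.5, 51 UMIs), set apart from all 18 other clusters, and at 10.8 in the neurons outside it, a log2 ratio of 2.20 (1.75 to 2.62). Next came cluster 3 at 26.4 CPM (21.6 to 32.0). Oprd1 was near the floor in several classes. The AGRP-like cluster was at 1.94 CPM (0.837 to 3.82) and cluster 6 at 1.96 (0.534 to 5.01). Cluster 16 had 0 UMIs in 189 nuclei, and the limit of 3 counts is 2.62 CPM. A UMI was present in 22.1% of cluster 15, 1.05% of AGRP-like nuclei and 1.54% of non-neuronal nuclei. Oprd1 (ENSMUSG00000050511) spans 132110726 to 132144486 of chromosome 4, minus strand.

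Oprl1, the nociceptin receptor gene, was the most even of the 5 receptors. It ran from 6.87 CPM in cluster 17 to 18.9 (12.6 to 27.3) in the VMH-like cluster, and only 2 of the 18 other clusters lay wholly below that interval. The non-neuronal nuclei, at 15.5 CPM (4.21 to 39.6, 4 UMIs), lay within the same range, so the level of Oprl1 could not be told from background. Its highest cluster was not that of Pnoc, although cluster 10 was close at 18.6 CPM (11.9 to 27.7). Oprl1 (ENSMUSG00000027584) is on the plus strand of chromosome 2 from 181715016 to 181720985.

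Between the hashtags, Pdyn and Tac2 were higher on the ARC side. Pdyn was at 6.73 CPM in ARC neurons (5.62 to 7.99) and 3.31 in PVH neurons (2.49 to 4.30), a log2 ratio of 1.02 (0.56 to 1.51). Tac2 was at 18.4 CPM (16.6 to 20.4) against 12.3 (10.6 to 14.1), a log2 ratio of 0.59 (0.33 to 0.84). On the PVH side Oprk1 was higher, at 19.4 against 14.8 CPM, a log2 ratio of -0.39 (-0.62 to -0.15), and Penk, at 14.7 against 11.8 CPM, a log2 ratio of -0.32 (-0.59 to -0.05). Oprl1 was at 13.8 against 11.2 CPM, a log2 ratio of 0.29 (0.02 to 0.57). The intervals of Tacr3 (-0.09), Pnoc (0.27), Oprm1 (0.06) and Oprd1 (-0.26) included zero, as did that of Kiss1, with 6 UMIs against 1. For several genes, whether the interval included zero changed with the settings. That of Oprd1 excluded zero with a positive quantile of 0.99, at -0.69 (-1.26 to -0.10), and with mitochondrial counts up to 5%, at -0.35 (-0.63 to -0.08). At that quantile the intervals of Oprk1, at -0.42 (-0.88 to 0.06), and Oprl1, at 0.12 (-0.43 to 0.70), included zero. With mitochondrial counts up to 5% the interval of Penk, at -0.27, ran from -0.54 to zero.

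At a fold of 1.5 or more, 2 of the 9 members with enough UMIs (Tac2 and Pdyn) were higher with the ARC hashtag, where 5.12% of all 15792 genes were, and 0 were higher with the PVH hashtag, against 5.64% of all genes. Tac2 lay on the threshold at 1.5-fold. The median log2 ratio of the 9 was 0.06, and that of all genes 0.04. Mitochondrial UMIs were at 248 CPM in ARC nuclei and 423 in PVH nuclei, and a Pomc UMI was found in 44.5% and 38.5% of them. Agrp was at 174 and 152 CPM. These levels hold the AGRP-like and POMC-like neurons of each side as well as any free RNA, so they do not measure free RNA alone. The part of these differences in the ratios was not tested.

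The difference of Tac2 between the hashtags lay in the KNDy-like cluster. That cluster gave 156 of the 356 Tac2 UMIs of ARC neurons, and without it Tac2 was at 11 CPM in ARC and 12.1 in PVH neurons, a log2 ratio of -0.14 (-0.43 to 0.15). Pdyn kept a log2 ratio of 0.72 (0.24 to 1.23) without the cluster. For Tacr3 the ratio moved to -0.50 (-0.87 to -0.14), so that outside the KNDy-like cluster Tacr3 was higher with the PVH hashtag, at 8.86 against 6.24 CPM. Oprk1 moved to -0.53 (-0.78 to -0.28), and the interval of Oprm1 excluded zero, at 0.12 (0.02 to 0.22). That of Pnoc, at 0.32, ran from zero to 0.63. With a stricter positive quantile of 0.99 for the hashtag calls, which left 1596 neurons, the log2 ratio of Tac2 with all clusters was 1.37 (0.70 to 2.10).

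**Figure D5:**
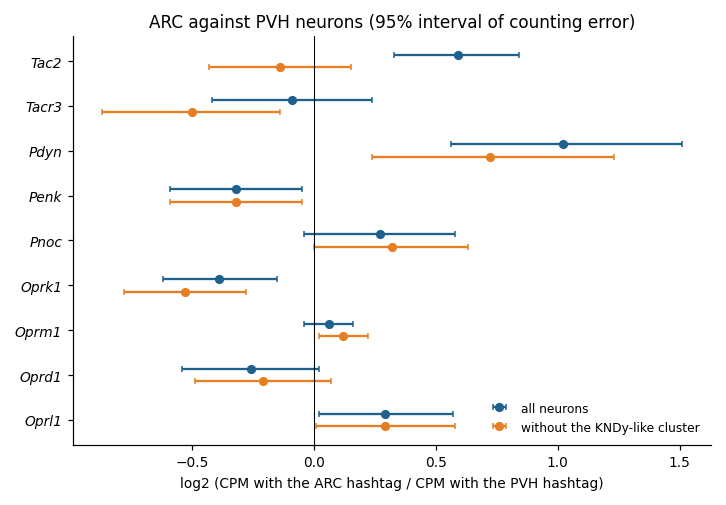
log2 ratio of CPM with the ARC hashtag to CPM with the PVH hashtag (x axis) for 9 genes, in all neurons (blue) and without the KNDy-like cluster (orange), with 95% intervals of counting error. Without the cluster Tac2 moves from 0.59 to -0.14 and Tacr3 from -0.09 to -0.50, while Pdyn stays right of zero at 0.72. Kiss1, with 7 UMIs, is not drawn.

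Within clusters that held at least 50 nuclei of each hashtag, namely clusters 1 and 4, the dopaminergic-like cluster 5 and the VMH-like cluster 11, 36 ratios could be formed and the intervals of 9 excluded zero, against 8.74% of the 59349 ratios of all genes with at least 50 UMIs. Oprd1 was among them in all 4 clusters. It was at 22.6 CPM in ARC against 3.50 in PVH nuclei of cluster 5, and at 23.5 against 5.48 in cluster 4. It went the other way in cluster 11, at 11.8 against 42.1 CPM, and in cluster 1, at 10.1 against 19.0 CPM. Its log2 ratios were 2.69 (1.03 to 5.03), 2.10 (0.90 to 3.31), -1.83 (-3.01 to -0.68) and -0.91 (-1.87 to -0.04) in the same order. Tac2 did not differ beyond counting error in clusters 1, 4 and 5, with log2 ratios of -0.10, -0.07 and -0.15, and was lower with the ARC hashtag in cluster 11 from 9 against 10 UMIs, at -1.69 (-3.16 to -0.23). Oprm1 also went both ways, with log2 ratios of -0.70 (-1.25 to -0.19) in cluster 4 and 0.73 (0.28 to 1.2) in cluster 5. The others were Oprk1 in cluster 1, at -1.02 (-1.81 to -0.30), and Pnoc in cluster 4, at 1.99 (0.71 to 3.27).

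The 2 genes most like each member over the 19 neuron clusters, by Pearson r of log2(CPM + 1), are given as a description. The reason is that the clusters share 1 library and any free RNA in it. For Tac2 they were Nxf3 (0.86) and Lrrc17 (0.82), for Pdyn Syt2 (0.85) and Cenpi (0.82), and for Kiss1 Pomp (0.84) and Fam118b (0.81). For Tacr3 they were Clhc1 (0.80) and Dbndd2 (0.77), and for Oprk1 Tmem87a (0.73) and Tfe3 (0.73). Penk was most like Ogfrl1 (0.81) and Gm10135 (0.78), and Pnoc Rnf20 (0.85) and 4930517O19Rik (0.84). After Ipcef1, Oprm1 was most like Dlg1 (0.84). Oprd1 was most like Ttc9b and Zswim5 (0.79 each), and Oprl1 like Gria1 (0.83) and Ccnjl (0.82). Among the members themselves, Tac2 with Tacr3 and Tac2 with Pdyn each had r 0.62, and Tacr3 with Oprm1 had -0.67. Genes chosen as the highest of 15792 have a high r by selection. The profile of Kiss1 over the clusters rests on 7 UMIs, so little can be read from its values.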

How the data were processed

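The deposited values are unnormalized UMI counts for each gene and barcode, with counts of 2 hashtags for the same barcodes. The submitters' processing notes name Cell Ranger 5.0, Seurat 4 and mm10, while the matrix itself carries 4.0.0 as its version. The strand and intron settings are not given in the sources used here. Of 11409 barcodes, 10170 passed the filters of the study's methods (above 800 and below 5000 genes, up to 1% mitochondrial counts, up to 12000 counts, genes in at least 3 nuclei). HTODemux (positive quantile 0.8) called 3767 ARC, 3074 PVH, 944 doublet and 2385 unassigned nuclei. Doublets were removed by hashtag only, so pairs with the same hashtag remain.

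Singlets of both hashtags were clustered with Seurat 5.3.0 and leidenbase 0.1.32 on R 4.3.3 (scale factor 10000, 2000 variable genes without the 10 members, 30 components, 20 neighbours, Leiden resolution 0.55), with summaries from scipy 1.17.1 under Python 3.11.15. A cluster took a class name when the first marker and at least 3 markers of its list were 1.5-fold over the other neurons with at least 3 UMIs each, and no other class had more markers among its 10 leading genes. Where several clusters passed, those at most 1 marker short of the best kept the name. Clusters with neuronal markers at a median fold below 0.5 and 3 or more glial markers were called non-neuronal. These thresholds were set after the data, the levels of the members included, had been seen. Intervals are exact Poisson for CPM, exact binomial for shares and the exact binomial of both counts for ratios. Thinning to 1000 UMIs left out 1 nucleus under that depth. Of 32285 gene identifiers, 32235 were found in GENCODE M21. The named genes are the 10 members, 22 other pathway genes, the 2 genes most like each member and the leading genes of their highest clusters. Some items of these lists and sequences are not reported here. The members and lists were chosen with earlier results of these data known. Alternatives were other hashtag quantiles, filters, resolutions and components, the ARC hashtag alone, means over nuclei, non-neuronal nuclei kept and members allowed among the variable genes. Others, leaving out the KNDy-like cluster, non-ARC nuclei or the richest nucleus, were chosen after seeing the data.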

Additional observations from a re-analysis of the deposited data

Results flagged for a closer look

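Oprd1 moved in opposite directions between the hashtags in different clusters. Its log2 ratio of ARC to PVH was 2.69 in the dopaminergic-like cluster 5 (37 and 3 UMIs) and -1.83 in the VMH-like cluster 11 (13 and 16 UMIs). With 1 sample of each hashtag, the difference between the clusters was not tested.

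Nuclei that HTODemux called as doublets of both hashtags entered no comparison, and several peptide genes had higher levels in them than in the singlets. Tac2 was at 27.6 CPM in the 944 doublets (23.3 to 32.5), against 18.3 in ARC and 12.2 in PVH nuclei, and was found in 12.3% of them. Penk was at 23.4 CPM (19.5 to 28.0), against 11.9 and 14.6, and was found in 11.9%. Agrp was at 210.3 CPM in the doublets, 174 in ARC and 152 in PVH nuclei. Npy was at 168 CPM against 122 and 77.6, and Pomc at 189 against 164 and 90.3. Oprl1 was at 18.1 CPM (14.7 to 22.1) against 13.8 and 11.2. Pnoc was at 14.7 (11.6 to 18.3) against 10.7 and 8.96, and its interval overlapped that of the ARC nuclei. Tacr3 was at 7.82 CPM in the doublets. Pdyn was not higher in them than in both groups of singlets, at 5.34 CPM (3.55 to 7.71) against 6.72 in ARC and 3.29 in PVH nuclei. Among these nuclei, 5 had 3 or more Tac2 UMIs, beside the 14 singlets.

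Gm28040, which shares exonic bases with Kiss1, was at 6.26 CPM in the KNDy-like cluster from 7 UMIs in 7 nuclei, above the 2.68 CPM of 3 counts, the limit taken for a count of 0. Its interval (2.52 to 12.9) reached below that limit. Gm28040 had 7 UMIs in the 6554 other neurons.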

How the results depend on the processing

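No paired analysis was possible because the data are 1 library without replicates. A KNDy-like cluster was named by the same rule under each alternative clustering, with 212 to 229 nuclei, except 77 with a quantile of 0.99. Of the ratios of the KNDy-like cluster to the other neurons, 76 of the planned values lay within the interval of the value reported. With a quantile of 0.99, Oprk1 was at 1.80 and Oprm1 at -1.11. Of the planned ratios of ARC to PVH, 45 lay within that interval. With a quantile of 0.99, Tac2 was at 1.37, Tacr3 at 0.30, Penk at -0.69 and Oprd1 at -0.69, and the cause was not tested. Without the KNDy-like cluster, Tac2 was at -0.14 and Tacr3 at -0.50. Restricting the comparison to ARC nuclei, or leaving out the richest nucleus, left all 20 ratios of the cluster within their intervals. Thinning to 1000 UMIs, which lowers shares by construction, gave 11.3% of KNDy-like nuclei with Tac2, 4.50% with Tacr3, 1.35% with Pdyn, 4.50% with Oprk1 and 2.70% with Oprm1, and Tac2 in 10.0% of nuclei with Tacr3. With a quantile of 0.99 no ratio could be formed for Kiss1 in either comparison or for Oprd1 in the KNDy-like cluster. Kiss1, with 7 UMIs in neurons, and pairs of genes in single nuclei are limited by depth.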
